A study of Mus musculus with 8 samples.

Results

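The genes described here are 9 methyltransferases that use S-adenosylmethionine (SAM) to methylate small molecules or RNA, of 55487 genes in the count table. They were chosen by name for what they methylate, with earlier results of these data known. The small-molecule enzymes are Nnmt, Gamt, Pemt, Tpmt and Hnmt, and the RNA enzymes are Mettl3, Mettl14, Nsun2 and Fbl. All 9 had reads in every library, and all 9 passed the filter on low counts that left 19392 genes to be tested.

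Polyadenylated RNA was sequenced from 8 cultures of mouse embryonic fibroblasts (MEFs) of genotype C57BL/6 Rosa26-rtTA +/T and Tet-O-OSKM +/T, in which doxycycline switches on the reprogramming factors Oct4, Sox2, Klf4 and Myc (OSKM) through the rtTA activator. Cells of MEFs 61.3 and 61.5, from separate embryos, were all grown in iPSC medium with doxycycline for 72 h, at 1 µg/mL in the sample labels but 1 mg/mL in the series design text and the published methods. Each MEF line was given 2 µM vitamin B12 (B12), the same dose of B12 plus PF-9366, which inhibits MAT2A, at 2 µM (B12 + MAT2Ai), SAM at 100 µM, or NSC636819, which inhibits the histone demethylases KDM4A and KDM4B, at 10 µM (NSC). All 4 groups therefore carried and induced OSKM, n = 2 libraries each, and a culture with doxycycline alone was not analysed here. The whole culture was sequenced, so fewer cells of a type and less RNA per cell cannot be told apart.

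SAM carries the methyl group that B12 helps to recycle through methionine synthase, and MAT2A makes SAM from methionine and ATP. Each methyltransferase passes that group to its own substrate and releases S-adenosylhomocysteine (SAH), which inhibits most such enzymes until adenosylhomocysteinase removes it. In liver, creatine and phosphatidylcholine synthesis are known as large users of SAM, and nicotinamide methylation by NNMT is known as a methyl sink in several cell types, whereas methylation of messenger, transfer and ribosomal RNA acts on the making and use of those RNAs.

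Libraries held 27498180 to 38565685 counted reads. All 12 fibroblast markers had reads in every library, and their sum was 81389 to 115908 CPM (reads of a gene relative to all counted reads, on a common library scale). The 17 macrophage markers summed to 1855 and 603 CPM under SAM in MEFs 61.3 and 61.5, against 5275 and 2928 under B12, 4694 and 2282 under B12 + MAT2Ai, and 4180 and 2133 under NSC. The 12 epithelial markers summed to 35.6 and 74.9 CPM under SAM and to 13.0 to 29.8 CPM in the other 6 libraries. In SAM of MEF 61.5, Krt8 (32.3), Krt19 (22.3), Cdh1 (9.82) and Dsp (5.79) made up most of that sum. Epcam, Krt18 and Cldn7 were at 0.668, 0.946 and 0.362 CPM there, so the sum follows a few of the markers. Mast cell and basophil markers summed to at most 2.28 CPM, with 4 to 7 of 9 at 0 in each library. The SAM cultures thus stood apart in both lists, and MEF 61.5 had fewer macrophage and more epithelial reads than MEF 61.3 under each treatment.

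The 9 genes spanned a wide range of levels. Per kilobase of exon, mean CPM over the 8 libraries was 23.2 for Nnmt, 13.0 for Nsun2, 12.2 for Gamt, 11.9 for Fbl, 2.97 for Mettl3, 2.17 for Mettl14, 1.70 for Tpmt, 0.787 for Pemt and 0.731 for Hnmt. On that scale Nnmt stood above 86.8% of the tested genes with a known exon length, and Hnmt stood above 23.7%. The fewest reads in a library were 34 for Hnmt and 41 for Pemt, against 2165 for Nsun2, so the smallest changes are visible only in the more abundant genes. Between the lowest and the highest library, CPM varied 1.80-fold for Pemt, 1.59-fold for Fbl and 1.16-fold for Mettl14.

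**Figure D1:**
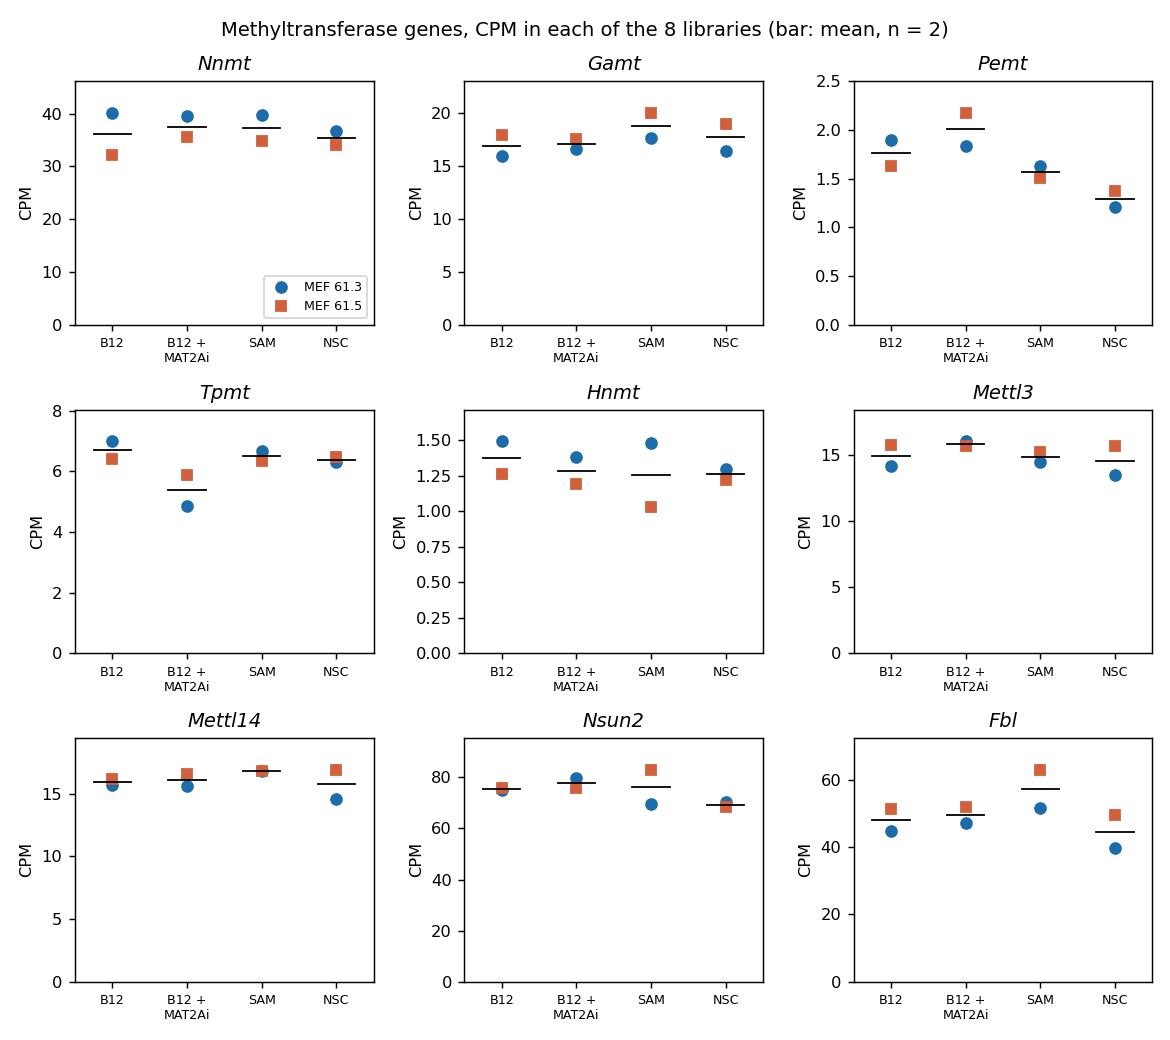
CPM of each of the 9 genes (vertical axes, each from 0) in the 8 libraries, by treatment (horizontal axes), with circles for MEF 61.3, squares for MEF 61.5 and a bar at the mean of both. Fbl was highest under SAM in each MEF, at 51.7 and 63.0 CPM, while Mettl3 and Mettl14 lay between 13.5 and 16.9 CPM in all 8 libraries.

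Of 54 comparisons of a gene between treatments (9 genes in 6 pairs of treatments), 2 passed an adjusted p of 0.05 in the edgeR quasi-likelihood test, and both were of Fbl. Fbl was higher under SAM than under B12 and lower under NSC than under SAM. The uncalled values lay between −0.62 and 0.28 on the log2 scale, and 5 of them had an unadjusted p under 0.05. The 6 comparisons share libraries, so that the SAM libraries enter both Fbl calls.

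Set beside all genes, the counts were small. For B12 + MAT2Ai against B12, which asks what blocking SAM synthesis does to B12-treated cells, 0 of the 9 genes were called, and 0.0877% of all tested genes were. For SAM against B12, which sets the methyl donor beside the vitamin, 1 of 9 was called against 7.71% of all genes. For NSC against B12, which sets demethylase inhibition beside the vitamin, 0 of 9 were called against 1.91%. Called members numbered 0 for SAM against B12 + MAT2Ai (8.17% of all genes), 0 for NSC against B12 + MAT2Ai (3.58%) and 1 for NSC against SAM (9.52%). At these shares, a list of 9 with 0 or 1 called genes does not stand out from all genes. The median log2 fold change of the 9 was 0.05, 0.01 and −0.07 for B12 + MAT2Ai, SAM and NSC against B12, and that of all tested genes was 0.00 in each.

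**Figure D2:**
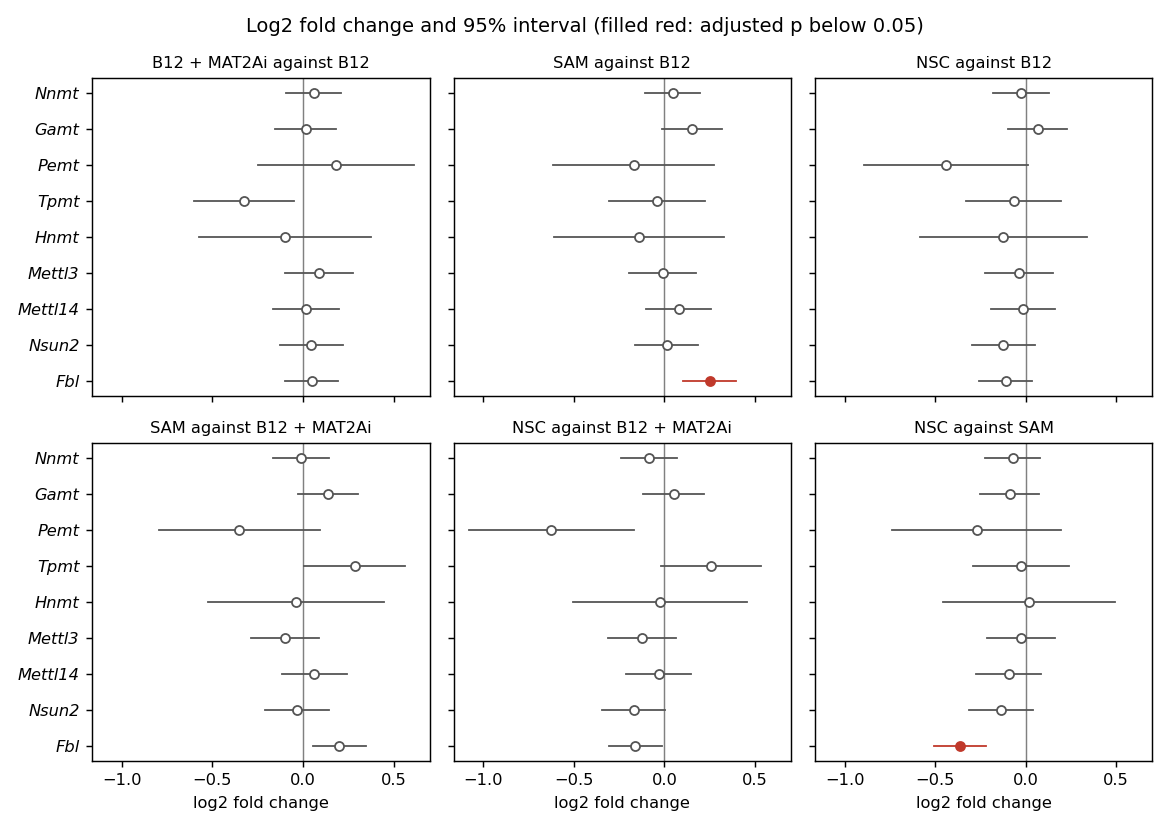
Log2 fold change (horizontal axes) of each gene in the 6 comparisons of treatments, with lines for the 95% interval of the edgeR model and filled red points where the adjusted p was below 0.05. Only the Fbl points for SAM against B12 (0.25) and NSC against SAM (−0.36) are filled, and the intervals of Pemt and Hnmt are the widest in each panel.

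Nnmt (ENSMUSG00000032271, GRCm38 chromosome 9, 48591877 to 48605153, minus strand) encodes nicotinamide N-methyltransferase, which turns nicotinamide into 1-methylnicotinamide. In MEFs 61.3 and 61.5 it had 40.1 and 32.1 CPM under B12, 39.5 and 35.5 under B12 + MAT2Ai, 39.7 and 34.7 under SAM, and 36.7 and 34.0 under NSC. The 4 treatments overlapped, and within every treatment MEF 61.3 was the higher. Against B12 the log2 fold changes were 0.06 ± 0.07 (SE) for B12 + MAT2Ai, 0.05 ± 0.07 for SAM and −0.03 ± 0.07 for NSC, with adjusted p = 0.862, 0.788 and 0.919. The 95% intervals of these 3 differences ran from −0.18 to 0.21 on the log2 scale, or 0.884-fold to 1.16-fold.

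Of 24 tested genes in the substrate pathways of the 5 small-molecule enzymes, 1 was higher (Aox1) and 1 lower (Nampt) in NSC against B12, beside 1.91% of all genes, and both act on metabolites of the NNMT reaction. Nampt, whose protein turns nicotinamide, the substrate of NNMT, into nicotinamide mononucleotide, had 59.0 and 47.9 CPM under NSC against 85.2 and 64.5 under B12. It fell by 0.48 on the log2 scale against B12 (SE 0.08, adjusted p = 0.0123), by 0.50 against B12 + MAT2Ai (adjusted p = 0.0108) and by 0.34 against SAM (adjusted p = 0.0277). Aox1, an aldehyde oxidase that oxidises methylnicotinamide, had 19.1 and 19.0 CPM under NSC against 12.8 and 14.8 under B12. It rose by 0.47 ± 0.09 against B12 (adjusted p = 0.0303), by 0.69 against B12 + MAT2Ai (adjusted p = 0.005) and by 0.37 against SAM (adjusted p = 0.0339). The NSC libraries were the 2 lowest of 8 for Nampt and the 2 highest of 8 for Aox1. Both genes were called against B12 in most of the 16 alternative settings, 12 for Nampt and 10 for Aox1. Nampt lost that call without the B12 library of MEF 61.3 (adjusted p = 0.0597) and without the NSC library of MEF 61.3 (0.144) or of MEF 61.5 (0.115). Aox1 lost it without the same 3 libraries (adjusted p = 0.265, 0.261 and 0.16) and without either library of B12 + MAT2Ai (0.0666 and 0.0705). Against SAM, the call held in 11 of 16 alternatives for Nampt and in 9 for Aox1. Without the SAM library of MEF 61.5 those values were −0.23 (adjusted p = 0.336) and 0.23 (adjusted p = 0.374), and DESeq2 gave an adjusted p of 0.0944 for Aox1. Of 17 macrophage markers, 5 were lower under NSC than under B12 and none higher, and the part of these cells in the 2 changes was not tested.

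Gamt (ENSMUSG00000020150, chromosome 10, 80258151 to 80261012, minus strand) encodes guanidinoacetate N-methyltransferase, the last enzyme of creatine synthesis. It had 15.9 and 17.8 CPM under B12, 16.6 and 17.5 under B12 + MAT2Ai, 17.6 and 20.0 under SAM, and 16.4 and 19.0 under NSC. SAM was the highest treatment in each MEF, but its lower library lay below the higher one of B12. SAM against B12 gave 0.15 ± 0.07 (adjusted p = 0.292), and the 2 other comparisons with B12 gave 0.01 and 0.07. Across the 3 comparisons with B12 the 95% intervals reached from 0.900-fold to 1.25-fold.

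In SAM against B12, 1 of the 24 tested genes in the substrate pathways was called, Gatm, beside 7.71% of all genes, so the list does not stand out. Gatm, which makes guanidinoacetate from arginine and glycine, had 4.91 and 6.20 CPM under SAM against 8.28 and 8.54 under B12, 8.12 and 7.54 under B12 + MAT2Ai and 7.33 and 7.22 under NSC. Both SAM libraries lay below the other 6. Gatm fell by 0.60 on the log2 scale in SAM against B12 (SE 0.12, adjusted p = 0.00986) and by 0.50 against B12 + MAT2Ai (adjusted p = 0.0309). The decrease was 0.75 in MEF 61.3 and 0.46 in MEF 61.5. The first call held in 14 of 16 alternatives and was lost without the SAM library of MEF 61.3 (adjusted p = 0.0985), and the second held in 10. Slc6a8, the creatine transporter, was at −0.13 in SAM against B12 (adjusted p = 0.28). Macrophage markers were lower in the same comparison for 15 of 17 genes (median −1.38), epithelial markers were higher for 5 of 8 tested (median 1.56), and their part in the Gatm difference was not tested.

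Pemt (ENSMUSG00000000301, chromosome 11, 59970614 to 60046489, minus strand) encodes phosphatidylethanolamine N-methyltransferase, which makes phosphatidylcholine by successive methylations and is best known in liver. It had 1.89 and 1.63 CPM under B12, 1.84 and 2.17 under B12 + MAT2Ai, 1.63 and 1.50 under SAM, and 1.21 and 1.37 under NSC. The 2 NSC libraries were the lowest of the 8. NSC was at −0.62 ± 0.21 on the log2 scale against B12 + MAT2Ai (unadjusted p = 0.0118, adjusted p = 0.121) and at −0.44 ± 0.21 against B12 (adjusted p = 0.415). The interval of NSC against B12 reached from −0.89 to 0.01, so that a decrease to 0.538-fold and no change both lay within the precision of these counts.

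In the parallel route, which makes phosphatidylcholine from choline, Pcyt1a, its rate-setting enzyme, had 73.2 to 77.9 CPM in all 8 libraries and log2 fold changes of −0.05, −0.04 and 0.00 against B12. Chka, the choline kinase that opens the route, rose by 0.32 in NSC against SAM (adjusted p = 0.0492, kept in 7 of 16 alternatives), with 18.8 and 16.3 CPM against 14.9 and 13.2.

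Tpmt (ENSMUSG00000021376, chromosome 13, 47022482 to 47044737, minus strand) encodes thiopurine S-methyltransferase, known for inactivating thiopurine drugs. A pseudogene on the opposite strand, Gm18807, shares 641 bases with its exons, and the counting used strand. Tpmt had 6.99 and 6.41 CPM under B12, 4.85 and 5.89 under B12 + MAT2Ai, 6.68 and 6.34 under SAM, and 6.30 and 6.48 under NSC. The B12 + MAT2Ai libraries were the 2 lowest of the 8. B12 + MAT2Ai against B12 gave −0.33 ± 0.12 (unadjusted p = 0.0242, adjusted p = 0.583), which was the smallest p of the 9 genes in that comparison. SAM against B12 + MAT2Ai gave 0.28 ± 0.13 (unadjusted p = 0.0451, adjusted p = 0.226). The B12 + MAT2Ai libraries enter both values. Xdh, a purine oxidase that also acts on thiopurines, rose by 0.33 ± 0.06 in NSC against SAM (adjusted p = 0.0063), with 102 and 77.0 CPM against 83.6 and 59.5. That call held in 13 of 16 alternatives. It was lost without SAM or NSC of MEF 61.5 and when MEF was left out of the model. In the same comparison 14 of 17 macrophage markers were higher, and their part was not tested.

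Hnmt (ENSMUSG00000026986, chromosome 2, 24002910 to 24049394, minus strand) encodes histamine N-methyltransferase, which inactivates histamine inside cells. It was the lowest of the 9, with 1.49 and 1.26 CPM under B12, 1.38 and 1.19 under B12 + MAT2Ai, 1.48 and 1.03 under SAM, and 1.30 and 1.22 under NSC. The treatments overlapped, and MEF 61.3 was the higher in each. Every log2 fold change between treatments lay between −0.14 and 0.02, with standard errors of 0.21 to 0.22. Against B12 the intervals allowed changes from 0.656-fold to 1.30-fold, so that differences of this size were not detectable at this depth.

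Among the RNA enzymes, Mettl3 and Mettl14 encode the catalytic and the RNA-binding subunit of the complex that methylates adenosine in messenger RNA. Mettl3 (ENSMUSG00000022160, chromosome 14, 52294841 to 52305128, minus strand) shares 933 exon bases with Tox4 on the opposite strand. It had 14.2 and 15.8 CPM under B12, 16.1 and 15.7 under B12 + MAT2Ai, 14.5 and 15.3 under SAM, and 13.5 and 15.7 under NSC. Mettl14 (ENSMUSG00000028114, chromosome 3, 123368297 to 123386108, minus strand) had 15.7 and 16.1, 15.6 and 16.6, 16.8 and 16.8, and 14.6 and 16.9 CPM in the same order. The treatments overlapped for Mettl3, whereas for Mettl14 both SAM libraries lay above those of B12 and of B12 + MAT2Ai. Against B12, the 95% intervals ran from 0.857-fold to 1.21-fold for Mettl3 and from 0.874-fold to 1.19-fold for Mettl14. The lowest adjusted p over the 6 comparisons was 0.428 for Mettl3 and 0.52 for Mettl14.

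Accessory subunits of the same complex and other enzymes of this adenosine mark gave no call either. Of 10 such genes, 0 passed in any of the 6 comparisons, beside 0.0877% to 9.52% of all genes. At these shares, 0 of 10 does not stand out. Wtap, which brings the 2 subunits to nuclear speckles, had 79.4 to 89.0 CPM over the libraries and was at −0.05 in SAM against B12, and Virma, the scaffold of the complex, had 104.0 to 117 CPM and was at −0.05. Among 10 erasers and readers of the mark, 1 was called in SAM against B12, Igf2bp2, beside 7.71% of all genes. Igf2bp2, an RNA-binding reader, rose there by 0.26 ± 0.06 (adjusted p = 0.0174), with 109 and 109 CPM against 90.4 and 91.0. That call held in 10 of 16 alternatives, with values from 0.26 to 0.28. Macrophage and epithelial markers also differed in that comparison, and their part was not tested. Igf2bp1, of the same family as Igf2bp2, rose by 0.29 in SAM against B12 + MAT2Ai (adjusted p = 0.049). Without the B12 + MAT2Ai library of MEF 61.5 the Igf2bp1 value was 0.17 (adjusted p = 0.509). The erasers Fto and Alkbh5 were at −0.04 and −0.07 in SAM against B12.

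Nsun2 (ENSMUSG00000021595, chromosome 13, 69533746 to 69635780, plus strand) encodes a cytosine methyltransferase of transfer RNA and other RNAs. Its exons share 165 bases with Tent4a and 469 with Gm17108, both on the opposite strand. It was the most abundant of the 9 by CPM, with 75.0 and 76.0 CPM under B12, 79.8 and 75.9 under B12 + MAT2Ai, 69.4 and 83.0 under SAM, and 70.3 and 68.3 under NSC. The SAM libraries lay furthest apart, 1 below and 1 above both B12 libraries. SAM minus B12 was −0.11 in MEF 61.3 (95% counting interval −0.19 to −0.03) and 0.13 in MEF 61.5 (0.05 to 0.20). The model over both gave 0.01 ± 0.08 (adjusted p = 0.962). NSC minus B12 was −0.09 and −0.15 in the 2 MEFs, and the model gave −0.12 ± 0.08 (adjusted p = 0.571). Of 28 other genes for transfer RNA methylation, 0 passed in any comparison of treatments, beside 0.0877% to 9.52% of all genes. Their list median was 0.00 in SAM against B12. Of 9 tested genes listed for methylation of RNA caps and small nuclear RNA, 0 passed as well, with a median of 0.03. At these shares, 0 of 9 does not stand out.

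**Figure D3:**
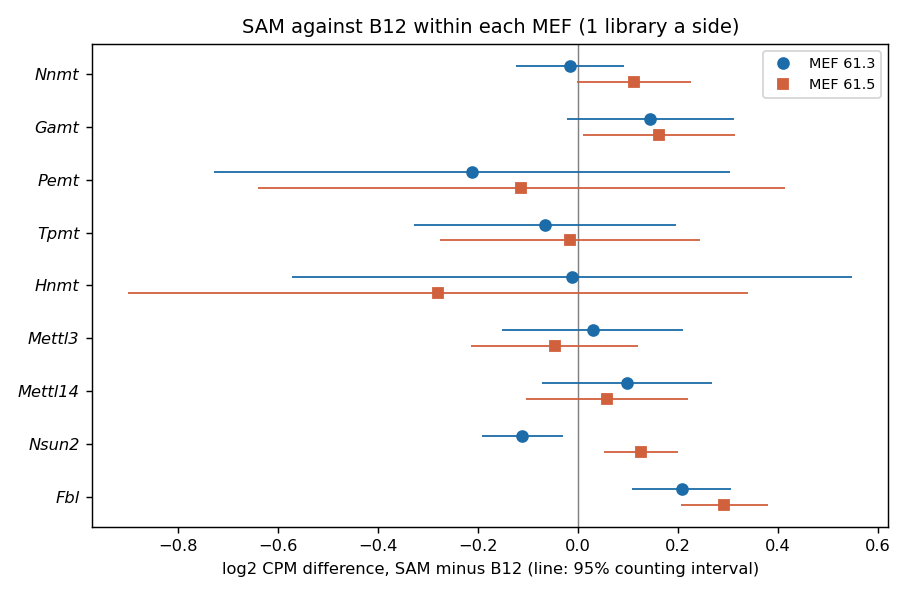
Difference in log2 CPM between SAM and B12 (horizontal axis) for each gene in MEF 61.3 (circles) and MEF 61.5 (squares), 1 library a side, with lines for the 95% interval from counting error alone. Fbl was higher under SAM in both MEFs, by 0.21 and 0.29, whereas Nsun2 lay at −0.11 in one and at 0.13 in the other.

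Fbl (ENSMUSG00000046865, chromosome 7, 28169710 to 28179269, plus strand) encodes fibrillarin, the enzyme of the box C/D small nucleolar ribonucleoprotein (snoRNP) that methylates ribose in ribosomal RNA. It had 44.8 and 51.5 CPM under B12, 47.3 and 52.1 under B12 + MAT2Ai, 51.7 and 63.0 under SAM, and 39.7 and 49.6 under NSC. In each MEF the order was NSC, B12, B12 + MAT2Ai, SAM from low to high. Across MEFs, the lower SAM library was only just above the higher B12 library and lay below the higher B12 + MAT2Ai library, while both NSC libraries lay below both SAM libraries.

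Fbl rose 1.19-fold in SAM against B12 (log2 0.25 ± 0.07, 95% interval 0.11 to 0.40, adjusted p = 0.0413). It fell to 0.778-fold in NSC against SAM (log2 −0.36 ± 0.07, −0.51 to −0.22, adjusted p = 0.00614). Within MEFs 61.3 and 61.5, SAM minus B12 was 0.21 and 0.29, and NSC minus SAM was −0.38 and −0.34. SAM against B12 + MAT2Ai gave 0.20 ± 0.07 (adjusted p = 0.0987), NSC against B12 −0.11 ± 0.07 (adjusted p = 0.542), and B12 + MAT2Ai against B12 0.05 ± 0.07 (adjusted p = 0.881).

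The 2 Fbl calls were not equally firm. SAM against B12 kept its sign in all 16 alternative settings (0.22 to 0.28) but its call in 6, and of the 8 libraries, only leaving out NSC of MEF 61.5 left it called. NSC against SAM was called in 13 of 16 (−0.42 to −0.31). It was lost without SAM of MEF 61.5 (adjusted p = 0.088), without NSC of MEF 61.3 (adjusted p = 0.105), and without the block for MEF (adjusted p = 0.469). Without that block the adjusted p of SAM against B12 was 0.701. Fewer macrophage reads and more epithelial reads in the SAM cultures accompanied both calls, and in NSC against SAM 14 of 17 macrophage markers were higher and 5 of 8 tested epithelial markers lower. The part of these marker differences in the Fbl values was not tested.

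Of the 3 partners of fibrillarin in the snoRNP core, 1 was called, in NSC against SAM, where 9.52% of all genes were. Nop58, a core protein that holds the guide RNA, had 66.0 and 69.2 CPM under B12, 73.6 and 79.3 under B12 + MAT2Ai, 71.9 and 83.8 under SAM, and 63.4 and 68.1 under NSC. It fell by 0.24 on the log2 scale in NSC against SAM (SE 0.06, adjusted p = 0.0325) and was at 0.20 in SAM against B12 (adjusted p = 0.0801). Nop56, its partner, was at −0.21 in NSC against SAM (adjusted p = 0.112) and Snu13, which binds the box C/D motif first, at −0.23 (adjusted p = 0.0777). In SAM against B12 the values of Nop56 and Snu13 were 0.14 and 0.13, with −0.01 and −0.02 in MEF 61.3 and 0.29 and 0.27 in MEF 61.5. For all 3 partners B12 + MAT2Ai was the highest treatment in MEF 61.3 and SAM the highest in MEF 61.5, whereas Fbl was highest under SAM in both. Of 17 tested genes for the snoRNP and other ribosomal RNA methyltransferases, 0 passed in SAM against B12 (median 0.10), beside 7.71% of all genes. In NSC against SAM 1, Nop58, passed (median −0.11), beside 9.52%, so the list does not stand out. Nop58 kept its call in 9 of 16 alternatives, and without SAM of MEF 61.5 its value was −0.18 (adjusted p = 0.336).

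**Figure D4:**
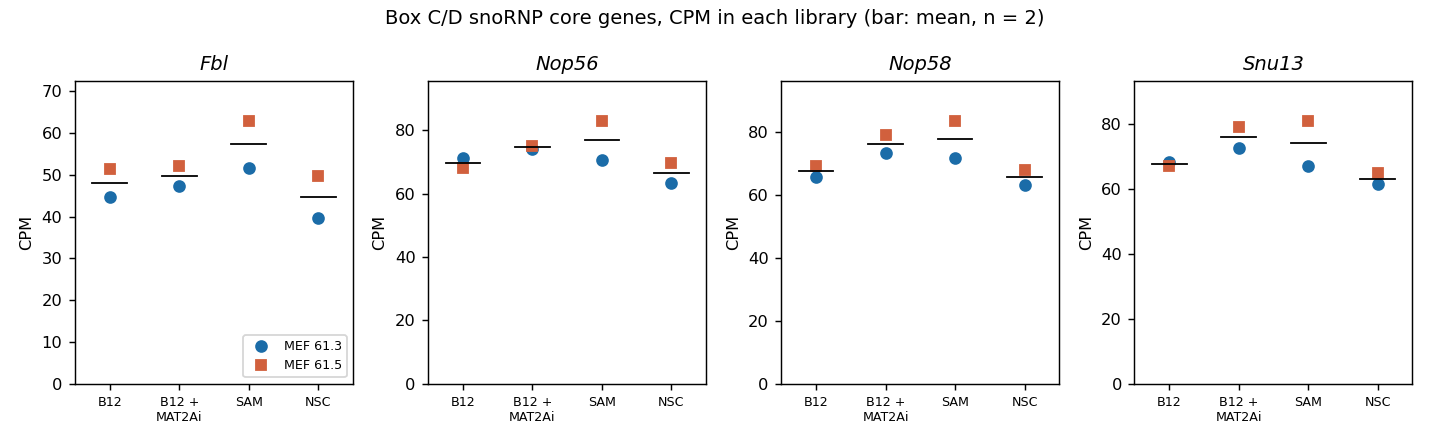
CPM (vertical axes, each from 0) of Fbl and of the other 3 core genes of the box C/D snoRNP in the 8 libraries, with circles for MEF 61.3, squares for MEF 61.5 and a bar at the mean of both. The highest library of each gene was SAM of MEF 61.5, at 63.0 CPM for Fbl, 83.1 for Nop56, 83.8 for Nop58 and 81.0 for Snu13.

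Genes of the nucleolus and of ribosome production gave 2 of 16 higher in SAM against B12 and 3 of 16 lower in NSC against SAM, beside 7.71% and 9.52% of all genes called in either direction. Npm1, an abundant nucleolar chaperone, rose by 0.28 (adjusted p = 0.0395) and fell by 0.37 (adjusted p = 0.00974), and its counts are uncertain where near-identical copies share its reads. Nolc1, which binds snoRNPs, rose by 0.27 (adjusted p = 0.0314) and fell by 0.29 (adjusted p = 0.0193). Dkc1, the pseudouridine synthase of the other snoRNP class, fell by 0.36 in NSC against SAM (adjusted p = 0.0189), with 25.7 and 27.2 CPM against 30.1 and 38.1. The median of the 16 genes was 0.06 in SAM against B12 and −0.15 in NSC against SAM. Macrophage and epithelial markers also differed in these 2 comparisons, and their part was not tested. Without SAM of MEF 61.5 the 3 values of NSC against SAM were −0.25, −0.21 and −0.22, with adjusted p = 0.14, 0.256 and 0.274 for Npm1, Nolc1 and Dkc1. Without the same library, Npm1 was at 0.16 (adjusted p = 0.362) and Nolc1 at 0.18 (adjusted p = 0.314) in SAM against B12, and each kept that call in 8 of 16 alternatives.

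The genes whose profile over the 8 libraries was nearest to that of Fbl were Mnat1, Gm7027 and Rps4x-ps, at distances of 0.33, 0.35 and 0.39 between log2 CPM profiles scaled to mean 0 and SD 1, among 15571 genes with a mean of at least 1 CPM. Mnat1 encodes an assembly factor of the CDK-activating kinase. Gm7027 and Rps4x-ps are annotated as processed pseudogenes, whose reads cannot be told apart from those of near-identical parent genes by counts alone, so their place is uncertain.

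Genes that make SAM and remove its product bear on all 9 enzymes, and 8 such genes were tested. Ahcy, adenosylhomocysteinase, had 66.2 and 82.2 CPM under B12, 74.4 and 90.8 under B12 + MAT2Ai, 77.2 and 105 under SAM, and 61.3 and 79.8 under NSC. As for Fbl, SAM was highest and NSC lowest in each MEF, and MEF 61.5 was the higher under each treatment. Ahcy rose by 0.29 ± 0.06 in SAM against B12 (adjusted p = 0.014) and fell by 0.36 in NSC against SAM (adjusted p = 0.00418). These calls held in 12 and 13 of 16 alternatives. Both were lost without SAM of MEF 61.5, where the values were 0.23 and −0.31. Macrophage and epithelial markers also differed in both comparisons, and their part was not tested. Ahcyl2, a related protein, moved the other way in the same comparisons, by −0.30 (adjusted p = 0.0427) and 0.31 (adjusted p = 0.035), and kept the first call in 5 of 16 alternatives. Mat2a, the target of the inhibitor, had 213 and 219 CPM under B12 + MAT2Ai against 195 and 185 under B12 (0.18 ± 0.06, adjusted p = 0.539). Its log2 fold change against B12 + MAT2Ai was −0.30 under SAM (adjusted p = 0.0123) and −0.27 under NSC (adjusted p = 0.0398). Each of these 2 calls held in 11 of 16 alternatives, with values from −0.31 to −0.28 and from −0.30 to −0.23.

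**Figure D5:**
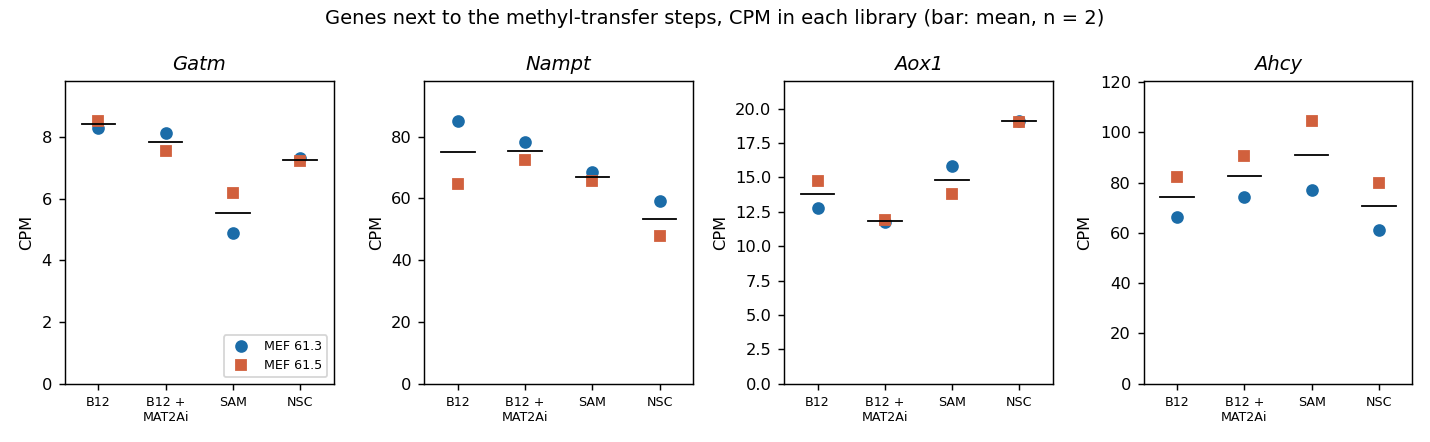
CPM (vertical axes, each from 0) of Gatm, Nampt, Aox1 and Ahcy in the 8 libraries, with circles for MEF 61.3, squares for MEF 61.5 and a bar at the mean of both. Gatm was lowest under SAM (4.91 and 6.20 CPM), Nampt lowest under NSC (59.0 and 47.9), Aox1 highest under NSC (19.1 and 19.0) and Ahcy highest under SAM within each MEF (77.2 and 105).

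Of 17 other small-molecule methyltransferases, 11 were abundant enough to test. In SAM against B12, 1 of the 11 was called, Carnmt1, beside 7.71% of all genes, so the list does not stand out. Carnmt1, which methylates carnosine, rose there by 0.28 (adjusted p = 0.0409), with 44.9 and 54.1 CPM against 37.8 and 43.4. That adjusted p lay close to the threshold, and the call held in 7 of 16 alternatives, with an adjusted p of 0.095 in DESeq2. Macrophage and epithelial markers also differed in that comparison, and their part was not tested.

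Between MEF 61.5 and MEF 61.3, over the 4 treatments, 2 of the 9 genes were called against 18.8% of all genes. Fbl was higher in MEF 61.5 by 0.24 ± 0.05 (adjusted p = 0.00444), in 4 of 4 treatments, and stayed called in all 14 alternatives. Nnmt was lower in MEF 61.5, at −0.19 ± 0.05 (adjusted p = 0.0176), also in 4 of 4 treatments, and its ranges of 32.1 to 35.5 CPM in MEF 61.5 and 36.7 to 40.1 in MEF 61.3 did not overlap. That call held in 7 of 14 alternatives and was lost with DESeq2 (adjusted p = 0.0582) and without any 1 library of B12, B12 + MAT2Ai or SAM. Gamt was at 0.16 ± 0.05 (adjusted p = 0.0581), and the other 6 genes had adjusted p of 0.271 or more. In the same comparison 16 of 17 macrophage markers were lower (median −1.09), 6 of 8 tested epithelial markers higher (median 1.17) and 7 of 12 fibroblast markers lower with 1 higher. The part of these marker differences in the Fbl and Nnmt values was not tested. Each line is 1 embryo, so that this comparison describes those 2 embryos.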

How the data were processed

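Raw counts of reads per gene were deposited for 8 libraries. Per the labels and the methods, the authors made stranded polyadenylated libraries, used STAR 2.5.2b for alignment to the mouse build mm10 (GRCm38), featureCounts for reverse-stranded counting over Ensembl genes, and added up technical replicates. The treatment of reads with several matching genes is not given in the sources used here. Of the gene identifiers, 55227 matched GENCODE M21 (GRCm38) and 260 did not.

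The tools were R 4.3.3, edgeR 4.0.16 (quasi-likelihood test, TMM scaling, filterByExpr with a minimum count of 10), limma 3.58.1 and DESeq2 1.42.0. All 8 libraries entered a single fit of treatment plus MEF, which left 3 residual degrees of freedom. P-values were adjusted by Benjamini-Hochberg over 19392 genes, and a gene was called below 0.05. The script was tested on simulated data. MEF was a block because same-numbered libraries share an embryo, and their deviations from the treatment means correlated at 0.424 to 0.559. Any 2 libraries differed by more than sampling noise. Within-MEF differences are of log2 CPM (prior count 2), and their intervals cover counting error only. Between treatments, the SE of the median gene was 0.0988 to 0.101 (log2).

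The 9 genes and 13 other lists were chosen with earlier results of these data known. From each other list the text names up to 3 called genes a direction and comparison of treatments, those with the largest change, a mean of 1 CPM or more and no change of sign between MEFs, and at any value Wtap, Virma, Nop56, Nop58, Gatm, Slc6a8, Nampt, Pcyt1a, Mat2a and Ahcy. For Fbl it names the 3 nearest profiles. Of the genes this rule gives, 1 is not reported here. Snu13, Fto, Alkbh5 and the genes named under "Other observations" for the comparison of MEFs were added after their values were seen. Alternatives were other scalings, filters and tools, no block, only the 4 libraries compared, and leaving out each library.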

Additional observations from a re-analysis of the deposited data

Results flagged for a closer look

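Nsun2 lay on opposite sides of 0 in the 2 MEF lines when SAM was compared with B12 or with B12 + MAT2Ai. In each case the counting interval left out 0, but that interval covers counting error only. Any 2 libraries differed by more than such error, and the model over both MEFs gave 0.01 ± 0.08 and −0.03 ± 0.08 (SE). SAM minus B12 was −0.11 on the log2 scale in MEF 61.3 and 0.13 in MEF 61.5. SAM minus B12 + MAT2Ai was −0.20 in MEF 61.3 and 0.13 in MEF 61.5. Each value compares 1 library with 1 library, both comparisons use the same SAM libraries, and the difference between the MEFs was not tested.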

How the results depend on the processing

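The number of called genes among the 9 changed in 3 comparisons. SAM against B12 had 1, and 0 with DESeq2, without the replicate block and with only the 4 libraries compared, and 0 to 1 when each library was left out. NSC against SAM had 1, 0 without the block, and 0 to 1 when each library was left out. MEF 61.5 against MEF 61.3 had 2, 1 with DESeq2 (Nnmt at adjusted p = 0.0582), 1 to 2 when each library was left out, and 3 with upper-quartile scaling, where Gamt passed (adjusted p = 0.0331). Nnmt kept that call in 7 of 14 alternatives. Fbl in SAM against B12 had an adjusted p of 0.0247 to 0.701 over the alternatives, 0.139 with DESeq2 and 0.135 with the 4 libraries. The block changed no other call among the 9 genes. No called gene of the 9 changed sign, but 29 of 59 uncalled values did under at least 1 alternative, so their direction is not established. The 26 calls between treatments of named genes other than the 9 kept their sign in all 16 alternatives, but each was lost without the block and without at least 1 library, and they held in 5 to 14 of 16. Counts over all genes, and with them the background shares, depended on the setting. For B12 + MAT2Ai against B12 the 17 calls became 0 to 452, for SAM against B12 the 1495 became 0 to 2085, and for NSC against SAM the 1847 became 1 to 3340. The lowest counts came without the block. The cause was not tested. With n = 2 and 3 residual degrees of freedom, changes under the intervals given are not visible, above all for Pemt and Hnmt.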

Other observations

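Genes around the methyl-transfer steps also differed between the 2 MEF lines. Of 24 tested genes in the substrate pathways, 1 was higher and 5 were lower in MEF 61.5. Xdh was lower at −0.47, Ckb, the brain-type creatine kinase, at −0.28, and Nampt at −0.22, while Pcyt1b, a related enzyme of the choline route, was higher at 0.25. Of the 8 genes for SAM supply and SAH removal, Ahcy was higher at 0.36 and Mtr, the B12-dependent methionine synthase, was lower at −0.20. Igf2bp3, a reader of the adenosine mark, was lower at −0.25. All of these passed an adjusted p of 0.05 in edgeR, beside 18.8% of all genes, and 16 of 17 macrophage markers were lower in the same comparison, whose part was not tested.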
